A study of Mus musculus with 18 samples.

Results

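The genes described here are those of fatty acid and triglyceride synthesis in mouse liver: Acly, Acaca, Fasn, Elovl6, Scd1, Fads2, Gpam and Dgat2, which code for enzymes of the pathway, and Srebf1 and Mlxipl, which code for transcription factors that drive it. They were chosen by name, as the classic lipogenic genes, and every array probe whose listed transcript maps to 1 of these 10 symbols was taken. This gave 10 of the 16535 genes with a symbol on the array and 15 of its 41174 probes, with 3 probes each for Acaca and Dgat2, 2 for Fasn and 1 for each of the 7 other genes. All 15 probes passed the filter on dim spots, so all 10 genes were tested.

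Livers were from C57BL/6 male pups at post natal day (PND) 15, 1 pup from each litter. The 5 hypothyroid pups were from litters whose dams drank 1% sugar water with 0.05% methimazole (MMI) and 1% perchlorate from PND 12. MMI blocks the synthesis of thyroid hormone (TH) and perchlorate blocks the uptake of iodide into the thyroid. The 5 control pups were from dams given sugar water alone, and pups of both groups were injected with PBS shortly before sacrifice. Total RNA of each liver was hybridized on a 2-colour Agilent array against a universal mouse reference RNA, so each value is a log2 ratio of liver to reference. Such a ratio can be compared between livers for 1 probe, but not between genes as a level. Arrays are named by group and animal number. Wherever 5 values are listed for a group, they are in the order 881, 832, 522, 616 and 391 for control livers and 891, 576, 311, 723 and 626 for hypothyroid livers.

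In lipogenesis, ATP citrate lyase (Acly) splits citrate to cytosolic acetyl-CoA, acetyl-CoA carboxylase (Acaca) makes malonyl-CoA, and fatty acid synthase (Fasn) builds palmitate from both, using NADPH. Elongases and desaturases then modify the chain, and acyltransferases join fatty acids to glycerol. SREBP-1c, from Srebf1, turns the pathway on in response to insulin, and ChREBP, from Mlxipl, does so in response to glucose. TH, acting through nuclear receptors, is known to raise several of these genes in liver, together with malic enzyme (Me1) and Spot 14 (Thrsp). At PND 15 pups still suckle, and milk is rich in fat and poor in carbohydrate, a diet on which hepatic lipogenesis is known to be low.

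The sequences before the start sites of Acly and Fasn are shown because these genes had the smallest unadjusted p-values of the 10 that were higher and lower in hypothyroid liver, respectively. They are the 250 bases upstream of the start, from RefSeq on build GRCm38.p6, read 5′ to 3′ on the strand of the gene, which is the minus strand for both. Capitals mark AGGTCA, the motif that nuclear receptors such as the TH receptor bind, and CCAAT, the box of the factor NF-Y, each on either strand. Acly lies at chr11:100528001-100528250 and Fasn at chr11:120824548-120824797.
Acly: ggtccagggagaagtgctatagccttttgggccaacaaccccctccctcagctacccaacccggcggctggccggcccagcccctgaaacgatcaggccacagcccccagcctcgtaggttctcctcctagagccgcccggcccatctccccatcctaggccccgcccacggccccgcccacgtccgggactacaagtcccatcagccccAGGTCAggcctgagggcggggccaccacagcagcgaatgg
Fasn: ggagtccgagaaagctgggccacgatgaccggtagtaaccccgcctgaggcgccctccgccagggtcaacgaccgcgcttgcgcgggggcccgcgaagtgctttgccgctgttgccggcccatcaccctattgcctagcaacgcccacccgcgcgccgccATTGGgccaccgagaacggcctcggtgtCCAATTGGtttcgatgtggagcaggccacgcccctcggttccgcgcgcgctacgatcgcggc
In the Acly window 1 AGGTCA lies 40 to 35 bases before the start. In the Fasn window 3 CCAAT boxes lie between 90 and 55 bases before the start, of which a pair overlap on opposite strands.

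Windows were found for 8 of the 10 genes, with 12 start sites in all, and not for Scd1 and Dgat2. AGGTCA was present before Acly, before Elovl6 and before 1 of the 2 start sites of Gpam, against 14.0% of all 32851 windows. CACGTG, the E box that ChREBP and its partners bind, was present before 1 of the 2 start sites of Mlxipl, against 6.02% of windows. CCAAT was present before Fasn and before 1 of 2 start sites each of Gpam and Mlxipl and 2 of 3 of Srebf1, against 33.8%. ATCACNCCAC, the sterol response element that SREBPs bind, was in none of the 12 windows, against 0.192%. CACGTG reads the same on both strands and was counted once. These are matches of letters within 250 bases only.

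The arrays were first checked against their labels. The labels give liver RNA as Cy5 on every array, but the ratios of control 832 and hypothyroid 576, which shared a slide (slide 141), correlated at -0.974 and -0.978 with those of the other slides across probes. The channels of these arrays were therefore exchanged, opposite to the labels, for every value given here except those said to be with the dyes as labelled. In that setting the ratios of control 832 and hypothyroid 576 run opposite to the rest, so its values show the effect of the exchange only. Ratios of control 616 were compressed, with a correlation of 0.883 against 0.974 to 0.988 for the other 9 arrays. Its mean log2 ratio over 8 hepatocyte markers was 2.46, beside 4.34 to 5.08 on the other arrays. The 10 exocrine pancreas markers averaged 4.04, 4.15 and 2.46 in control 832, 522 and 616, and 0.50 to 0.64 on the other 7 arrays. Of 9 of them tested, 8 were lower in hypothyroid liver at an unadjusted p below 0.05 by limma, with a median difference of -1.99. All 8 hepatocyte markers had a higher mean in hypothyroid liver, 2 of them at an unadjusted p below 0.05 by limma, with a median difference of 0.67. These differences include control 616, the lowest array for each of the 8. Averaged over the markers, controls 881, 832, 522 and 391 were at 4.34, 4.50, 5.04 and 4.61, and the hypothyroid livers at 4.50 to 5.08. The 9 adipocyte markers averaged 2.41 in hypothyroid 311, where Ucp1, Cfd and Adipoq were at 4.03, 4.04 and 2.08, and 0.83 to 1.14 elsewhere. On the other arrays Ucp1 was at -0.14 to 0.10 and Adipoq at -0.31 to 0.25. Plin1 was also high in hypothyroid 311, at 1.28, while Retn and Lep were both at 0.03 there. Fabp4, Car3 and Lipe, at 4.49, 5.24 and 0.50 in that liver, were within or little above the range of the other arrays. Ucp1, Adipoq and Lep did not pass the filter on dim spots. Of 6 adipocyte markers tested, 1 was higher in hypothyroid liver at an unadjusted p below 0.05 by limma. The part of these markers in the results was not tested beyond the values without single arrays given below. The arrays with high pancreas markers were all controls, and leaving out 1 of them keeps the others. These values therefore cannot separate the pancreas markers from the group. In RNA from whole liver, fewer cells of a type and less RNA per cell cannot be told apart.

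None of the 10 genes passed the test. With limma over 32053 probes, 0 of 10 had an adjusted p below 0.05, against 0.00936% of all probes tested (3 probes), and their adjusted p-values were between 0.417 and 0.978. At an unadjusted p below 0.05 there were 3 of 10, against 7.47% of all probes tested, with Acly and Scd1 higher and Fasn lower in hypothyroid liver. Only Acly had no overlap between the groups, as 2.07% of all probes tested had. The mean was higher in hypothyroid liver for 6 genes and lower for 4, and the median difference of the 10 was 0.09 log2 units, beside -0.01 for all probes. Differences ranged from -0.32 to 0.55. Those of Acly, Scd1, Srebf1 and Fasn kept their direction under all 26 alternatives tried, while those of Acaca, Elovl6, Fads2, Gpam, Dgat2 and Mlxipl turned under at least 1 of them. The 95% interval of the brightest probe stayed within 1.5-fold in either direction for 5 genes, Acly, Acaca, Elovl6, Gpam and Dgat2, and reached beyond it for the other 5. The probes of Acaca and Gpam were dim, so their intervals may not bound a difference in the transcripts.

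**Figure D1:**
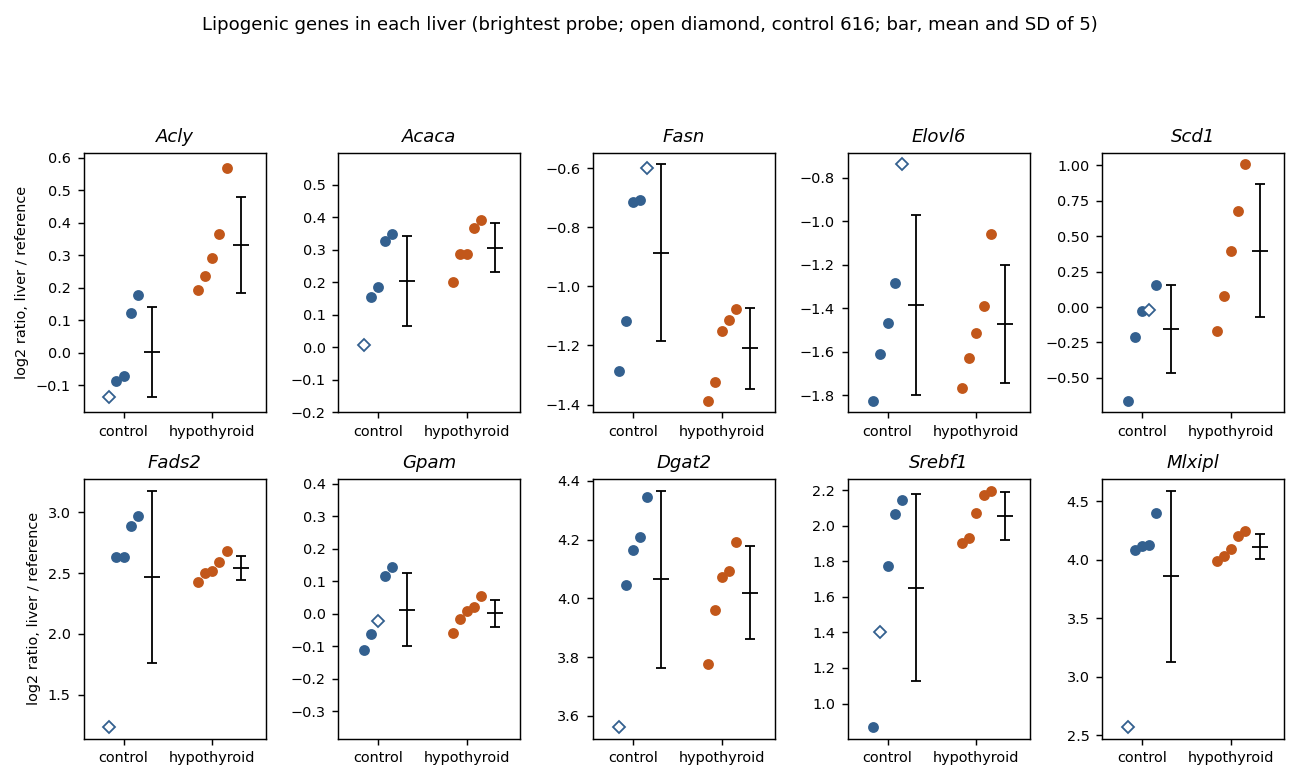
Log2 ratio of liver to reference (vertical axis, own scale for each gene) for the brightest probe of each gene, with 1 point for each liver, control in blue and hypothyroid in orange. The bars give the mean and SD of 5 livers, and the open diamond is control 616, which lies far below the other controls for Mlxipl (2.57) and Fads2 (1.24). The groups are apart only for Acly.

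Acly, the enzyme that supplies cytosolic acetyl-CoA, was the gene without overlap. It (probe A_51_P261718) had log2 ratios of -0.09, 0.12, -0.07, -0.14 and 0.18 in the control livers. It had 0.19, 0.57, 0.29, 0.37 and 0.23 in the hypothyroid livers. All 5 hypothyroid livers were above every control liver, although the highest control, at 0.18, and the lowest hypothyroid liver, at 0.19, were nearly level. The mean was 0.00 ± 0.14 (SD, n = 5) in control and 0.33 ± 0.15 in hypothyroid liver. The difference was 0.33 log2 units (limma standard error 0.09, 95% interval 0.13 to 0.53), or 1.26-fold. In the limma fit this gave an unadjusted p of 0.00421 and an adjusted p of 0.417. An exact permutation test, two-sided, gave p = 0.00794, the lowest possible with 5 livers in each group. Controls 881 and 391, whose pancreas markers were low, were at -0.09 and 0.18. The difference was 0.30 without control 616 and 0.34 without hypothyroid 311. It was 0.15 (limma unadjusted p = 0.415) with the dyes of slide 141 as labelled and 0.54 (limma unadjusted p = 0.0857) with median centring in place of loess.

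Acaca, which commits acetyl-CoA to fatty acid synthesis, was measured by 3 probes near the dim end of the array, and these did not move together. The brightest had 0.35, 0.33, 0.15, 0.01 and 0.19 in the control livers and 0.20, 0.29, 0.29, 0.39 and 0.37 in the hypothyroid livers. The groups overlapped, with a difference of 0.10 (limma standard error 0.08, 95% interval -0.07 to 0.27, adjusted p = 0.766). The second probe differed by -0.05 (adjusted p = 0.879). The third was lower than every control in 4 of the 5 hypothyroid livers and differed by -0.15 (limma unadjusted p = 0.0501, adjusted p = 0.668). That probe was well above background on 1 control array and 3 hypothyroid arrays only. With the 3 probes averaged the difference was -0.03, so no direction can be given for Acaca.

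Fasn, which carries out chain synthesis, lay on the opposite side of 0 from Acly. Its brightest probe had -0.72, -0.71, -1.29, -0.60 and -1.12 in the control livers. It had -1.32, -1.15, -1.11, -1.39 and -1.08 in the hypothyroid livers. The hypothyroid livers lay close together, while controls 881, 832 and 616 lay above all of them, and controls 522 and 391 lay within their range. The mean was -0.89 ± 0.30 (SD, n = 5) in control and -1.21 ± 0.14 in hypothyroid liver. The difference was -0.32 (limma standard error 0.13, 95% interval -0.62 to -0.03, adjusted p = 0.650), with an unadjusted p of 0.0344 by limma and an exact two-sided permutation p of 0.0794. The control level was thus 1.25-fold higher. The second, dimmer Fasn probe differed by -0.13 (adjusted p = 0.791). Without control 616 the difference of the brightest probe was -0.25 (limma unadjusted p = 0.0688). It was -0.15 with the dyes of slide 141 as labelled, -0.16 with median centring and -0.17 with quantile normalization, with limma unadjusted p-values of 0.797, 0.687 and 0.219. Its limma unadjusted p was also above 0.05 without control 881, control 832, hypothyroid 891 or hypothyroid 723, at 0.0800, 0.0793, 0.0737 and 0.0815.

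Of the enzymes that modify the chain, Scd1, the Δ9 desaturase that makes oleate from stearate, had the largest difference of the 10 genes and also a wide spread. Its log2 ratios were 0.15, -0.03, -0.66, -0.02 and -0.21 in the control livers. They were -0.17, 0.40, 0.68, 0.07 and 1.01 in the hypothyroid livers. Hypothyroid 626, 311 and 576 were above every control, whereas hypothyroid 723 and 891 were within the control range. The difference was 0.55 (limma standard error 0.22, 95% interval 0.07 to 1.04, adjusted p = 0.628), or 1.47-fold, with an unadjusted p of 0.0292 by limma. The exact two-sided permutation p was 0.0714. Scd1 is also abundant in fat, and hypothyroid 311 held adipocyte transcripts. Without that array the difference was 0.48 (limma unadjusted p = 0.0697), and without hypothyroid 626, which had the highest value, it was 0.40 (limma unadjusted p = 0.0721). It was 0.43 without control 522 and 0.54 without control 391 (limma unadjusted p = 0.0740 and 0.0530).

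Elovl6, which extends palmitate to stearate, had -1.61, -1.47, -1.82, -0.74 and -1.28 in the control livers and -1.77, -1.06, -1.51, -1.63 and -1.39 in the hypothyroid livers. The hypothyroid values fell inside the control range. The difference was -0.09 (limma standard error 0.19, 95% interval -0.52 to 0.34, adjusted p = 0.925), and it was 0.07 without control 616, the highest control.

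Fads2, the Δ6 desaturase of polyunsaturated fatty acids, had 2.63, 2.97, 2.88, 1.24 and 2.63 in the control livers. It had 2.68, 2.50, 2.52, 2.59 and 2.43 in the hypothyroid livers. With control 616 the difference was 0.07 (limma standard error 0.28, 95% interval -0.54 to 0.68, adjusted p = 0.960). Without that array the direction turned, to -0.24 (limma unadjusted p = 0.0226, adjusted p = 0.552). The remaining 4 controls then lay at 2.63 or higher, and only hypothyroid 891 reached their range.

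The acyltransferases of triglyceride synthesis differed by less than their SD among the controls. Gpam, the mitochondrial enzyme that adds the first acyl chain to glycerol 3-phosphate, was dim, and its probe was above the background limit on 4 control arrays and 5 hypothyroid arrays. Its values were -0.06, 0.12, 0.14, -0.02 and -0.11 in the control livers and 0.05, -0.06, 0.02, 0.01 and -0.02 in the hypothyroid livers. The difference was -0.01 (limma standard error 0.07, 95% interval -0.16 to 0.14, adjusted p = 0.978). With so dim a probe a difference in Gpam may not have been detectable.

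Dgat2, which adds the last acyl chain, was far above the reference on all 3 of its probes. The brightest had 4.16, 4.04, 4.35, 3.56 and 4.21 in the control livers and 4.09, 3.78, 4.19, 4.07 and 3.96 in the hypothyroid livers. The hypothyroid values lay inside the control range, with a difference of -0.05 (limma standard error 0.14, 95% interval -0.35 to 0.26, adjusted p = 0.948). The other probes differed by 0.07 and 0.10, with control 616 the lowest array on each of the 3 probes. Without control 616 the difference of the brightest probe was -0.17 (limma unadjusted p = 0.0939). With quantile normalization it was -0.36 (limma unadjusted p = 0.0172), so the size of the Dgat2 difference depended on the normalization.

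Both transcription factors had a higher mean in hypothyroid liver with overlap between the groups, that of Mlxipl only with control 616 included. Srebf1 had 2.15, 2.07, 0.87, 1.40 and 1.77 in the control livers and 1.93, 2.07, 2.17, 1.90 and 2.20 in the hypothyroid livers. The hypothyroid livers were close together at the top of the control range, with an SD of 0.14 against 0.53 in controls, where controls 522 and 616 were low. The difference was 0.40 (limma standard error 0.21, 95% interval -0.07 to 0.87, adjusted p = 0.712), and it was 0.21 without control 522 (limma unadjusted p = 0.188). It was 0.53 without control 881 and 0.51 without control 832, the 2 highest controls (limma unadjusted p = 0.0290 and 0.0402). The probe does not tell the isoforms SREBP-1a and SREBP-1c apart here, as no probe sequence was used.

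Mlxipl had 4.08, 4.13, 4.39, 2.57 and 4.12 in the control livers and 4.09, 4.03, 4.20, 4.24 and 3.99 in the hypothyroid livers. Apart from control 616 all 9 livers were within 3.99 to 4.39. The difference was 0.25 with all arrays (limma standard error 0.29, 95% interval -0.38 to 0.88, adjusted p = 0.833) and -0.07 without control 616 (limma unadjusted p = 0.439).

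**Figure D2:**
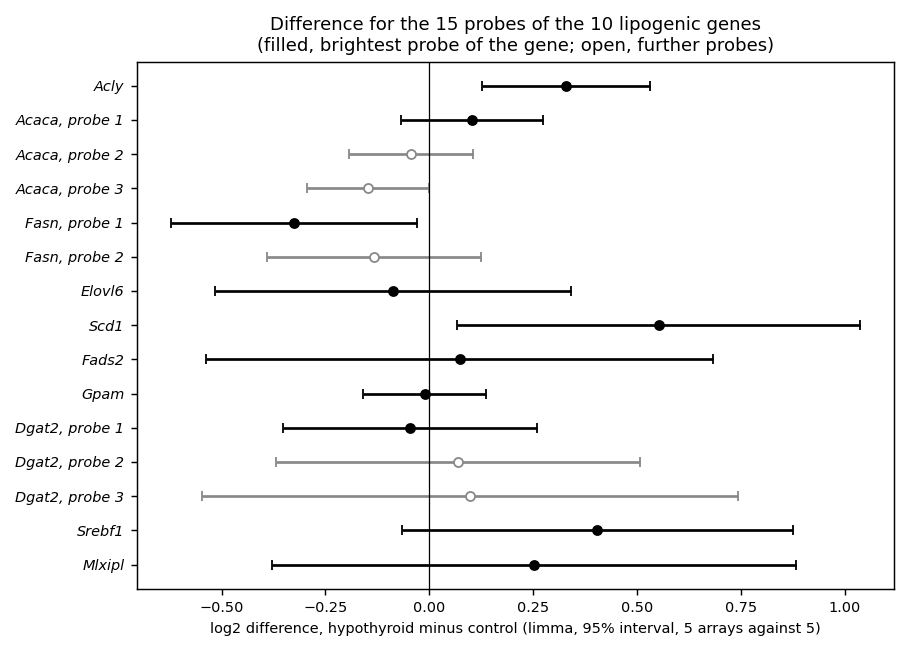
Difference in log2 ratio between 5 hypothyroid and 5 control arrays (horizontal axis, limma) for the 15 probes, with the 95% interval as a bar. Filled points are the brightest probe of each gene. The interval excludes 0 for Acly (0.13 to 0.53), Scd1 (0.07 to 1.04) and the brightest Fasn probe (-0.62 to -0.03), before adjustment for the number of probes.

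Arrays that shared a slide were compared next, since 4 of the 6 slides held 1 array of each group. Within these slides Acly was higher in the hypothyroid liver on 4 of 4, by 0.28, 0.45, 0.36 and 0.37 on the slides of control 881, 832, 522 and 616. Control 391, the highest control for Acly at 0.18, and hypothyroid 723 shared no slide with an array of the other group. They are not in this comparison. Fasn was lower on 3 of 4, at -0.61, -0.44 and -0.48, and higher on the slide of control 522, by 0.17. Scd1 was higher on 3 of 4, by 0.42, 1.34 and 1.03, and was lower on the slide of control 881, at -0.32. Srebf1 was higher by 1.31 and 0.80 on the slides of control 522 and 616, and differed by 0.00 and -0.21 on those of control 832 and 881. Mlxipl differed by 1.41 on the slide of control 616 and by between -0.19 and 0.01 on the other slides. A fit with slide as a fixed block takes the difference from the same 4 pairs of arrays. In that fit the difference of Acly was 0.37 (limma unadjusted p = 0.00261) and that of Scd1 was 0.62 (limma unadjusted p = 0.0700). The difference of Fasn with this block was -0.34 (limma unadjusted p = 0.0597).

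**Figure D3:**
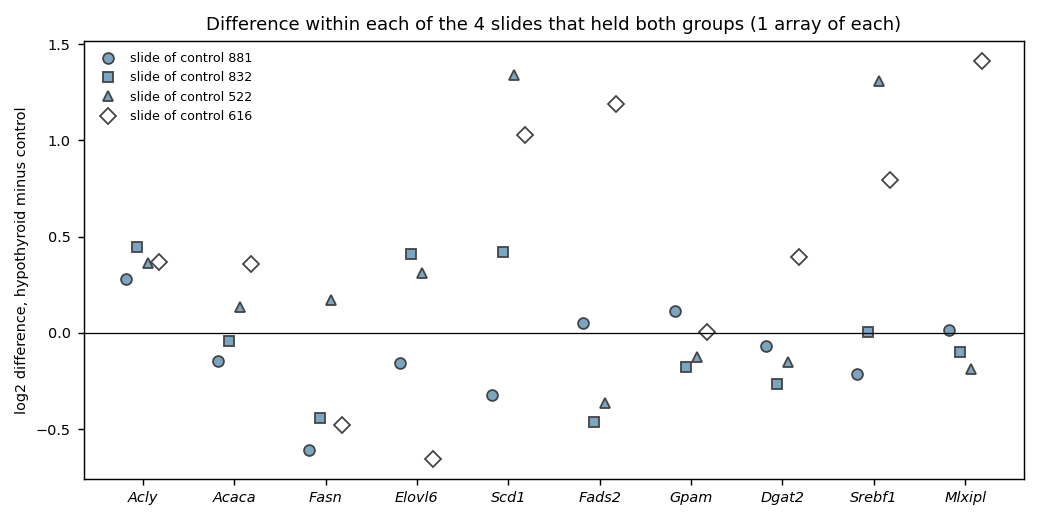
Difference in log2 ratio between the hypothyroid and the control array of the same slide (vertical axis) for each of the 10 genes, with 1 symbol for each of the 4 slides that held both groups. Acly is between 0.28 and 0.45 on every slide, while Scd1, Srebf1, Fads2 and Mlxipl differ widely between slides, and the slide of control 616 (open diamonds) holds the highest point for Fads2 (1.19) and Mlxipl (1.41).

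Some pairs of members varied together and others in opposite directions. After the group means were subtracted, the median Pearson correlation over the 45 pairs of genes was 0.11 over 10 arrays and -0.16 over the 9 arrays without control 616. These arrays share a reference, and pairs of them share a slide, so the correlations describe the arrays only. Mlxipl and Fads2 correlated at 0.97 with control 616 among the arrays, and Elovl6 and Dgat2 at -0.89. Without control 616 the highest were Fasn with Srebf1 at 0.89 and Gpam with Fads2 at 0.88. They were followed by Acly with Elovl6 at 0.83 and Fasn with Scd1 at 0.80. The lowest were Srebf1 with Mlxipl at -0.78, Elovl6 with Dgat2 at -0.74 and Fasn with Mlxipl at -0.69. In all, 24 of 45 pairs were below 0. Within the groups and without control 616, Fasn and Srebf1 thus tended to be high in the same livers, although their group means differed in opposite directions. With control 616 their correlation was 0.62. Outside the lipogenic lists, the named genes whose pattern over the 10 arrays was most like the mean of the 10 members were Acot3, Coq8b, Parp12, Elp4 and Sgms2, with correlations of 0.97 to 0.94. Without control 616 these were 0.89, 0.94, 0.77, 0.80 and 0.80. The genes were picked as the highest among the tested probes with a symbol outside the lists, with control 616 included. Their correlations are therefore high by selection.

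The other genes of the pathway were read from 4 lists of 86 genes in all, of which 81 were tested. None passed at an adjusted p of 0.05 by limma. An unadjusted p below 0.05 was seen for 9 of them, with 3 higher and 6 lower in hypothyroid liver, beside the 7.47% of all probes. In all, 39 had a higher and 42 a lower mean. The medians of the lists were between -0.04 and 0.01 log2 units, beside -0.01 for all probes.

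Of 11 genes tested that supply carbon and NADPH, 1 had an unadjusted p below 0.05 and it was lower. Me1, malic enzyme, had -1.29, -1.33, -1.40, -1.10 and -0.96 in the control livers and -1.45, -1.60, -1.79, -1.89 and -1.70 in the hypothyroid livers. All 5 hypothyroid livers were below every control, with a difference of -0.47 (limma unadjusted p = 0.00105, adjusted p = 0.272). It was -0.18 with quantile normalization and -0.23 with median centring (limma unadjusted p = 0.399 and 0.492).

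Among 26 genes tested that synthesise and modify fatty acids, 2 had an unadjusted p below 0.05, and both were lower. Thrsp, a nuclear protein that accompanies lipogenesis, had 2.40, 2.27, 2.10, 1.01 and 1.63 in the control livers. It had 1.31, 0.54, 1.20, 0.07 and 0.48 in the hypothyroid livers, and control 616 was the only control within the hypothyroid range. The difference was -1.16 (limma unadjusted p = 0.00258, adjusted p = 0.344). Elovl3, an elongase of saturated chains, differed by -0.43 without overlap (limma unadjusted p = 0.00608, adjusted p = 0.473). Its probe was well above background on only 3 hypothyroid arrays, and without control 522, the highest control at 0.72, the difference was -0.30. With the processed signals of the scanner software it was -1.67 (limma unadjusted p = 0.00172), so its size depended on how background was handled. Acacb, the carboxylase whose product limits fatty acid oxidation, differed by -0.03, Fads1 by 0.02 and Elovl5 by 0.04, with adjusted p-values from 0.961 to 0.989. The last of these had a second probe at 0.30 (limma adjusted p = 0.775). Scd2 was at -4.56 to -4.23 in 4 controls, at -1.21 in control 616 and at -4.34 to -4.04 in hypothyroid livers, so its difference of -0.46 (limma adjusted p = 0.842) became 0.17 without control 616.

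Of 25 genes tested for triglyceride synthesis and lipid droplets, 2 had an unadjusted p below 0.05 and both were higher. Cidec, a droplet protein of fat and of fatty liver, had 0.92, 0.99, 0.84, 0.47 and 0.59 in the control livers and 1.05, 1.09, 2.22, 1.33 and 1.00 in the hypothyroid livers. The groups did not overlap, but the highest value was that of hypothyroid 311, the array with adipocyte markers. The difference was 0.57 (limma unadjusted p = 0.0234, adjusted p = 0.619), and without that array it was 0.35 (limma unadjusted p = 0.0165). Gpat4, an acyltransferase of the endoplasmic reticulum, differed by 0.24 (limma unadjusted p = 0.0215, adjusted p = 0.608), and 2 further probes differed by 0.26 and 0.25 with unadjusted p-values of 0.366 and 0.255. Dgat1, the other enzyme of the last step, differed by 0.15 (limma adjusted p = 0.760).

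Of 19 regulators tested, 1 was higher and 3 were lower at an unadjusted p below 0.05. Pparg, a lipid-sensing nuclear receptor, was higher by 0.40 (limma unadjusted p = 0.00454, adjusted p = 0.427), with 3 of 5 hypothyroid livers above every control. It is abundant in fat, and without hypothyroid 311 its difference was 0.34. Ppargc1b, a coactivator of SREBPs, was lower with a difference of -0.56 (limma unadjusted p = 0.00286, adjusted p = 0.363). A second probe of Ppargc1b gave -0.47 (limma unadjusted p = 0.0182). Srebf2, the SREBP of cholesterol synthesis, was lower at -0.43 (limma unadjusted p = 0.00646, adjusted p = 0.483), but its second, dimmer probe differed by 0.00. Prkaa1, a catalytic subunit of AMP-activated kinase, was lower at -0.27 (limma unadjusted p = 0.0444, adjusted p = 0.661), with a second probe at -0.30. The Prkaa1 difference was -0.18 without control 616, -0.02 with quantile normalization and -0.05 with median centring (limma unadjusted p = 0.0852, 0.850 and 0.883). Insig1, which retains SREBPs in the endoplasmic reticulum, differed by -0.25 (adjusted p = 0.702) and Insig2 by 0.13 (adjusted p = 0.863). Nr1h3, the receptor LXRα, which induces Srebf1, differed by 0.27 (limma adjusted p = 0.762), or 0.05 without control 616. Of the 9 genes of these lists with an unadjusted p below 0.05, 0 kept it with the dyes of slide 141 as labelled and 2, Thrsp and Elovl3, with median centring. With quantile normalization 6 kept it, without Me1, Srebf2 and Prkaa1. With processed signals 6 kept it, without Thrsp, Cidec and Prkaa1. With slide as a fixed block 6 kept it, without Cidec, Gpat4 and Srebf2.

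**Figure D4:**
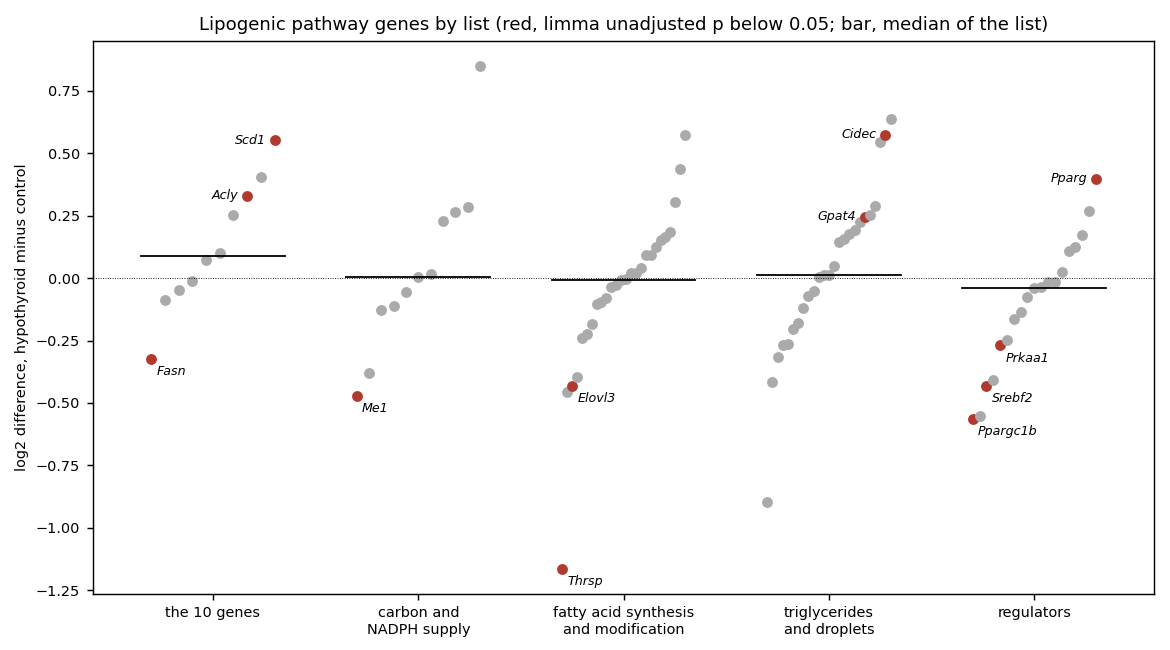
Difference in log2 ratio between hypothyroid and control liver (vertical axis) for the 10 genes and the 81 tested genes of the 4 pathway lists, with 1 point for each gene and the median of each list as a bar. Red points, which are named, have a limma unadjusted p below 0.05, and none passed after adjustment. Acly and Scd1 are at 0.33 and 0.55, on the opposite side of 0 from Fasn, Me1 and Thrsp at -0.32, -0.47 and -1.16.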

How the data were processed

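Liver mRNA of 5 control and 5 hypothyroid pups was measured on 10 Agilent arrays of 6 slides, with the groups given by the labels. Per the file headers, the authors deposited the median intensities of each spot and of its local background in both channels, from Feature Extraction 10.1.1.1, with that software's processed signal intensities and no normalization between arrays. Median intensities were corrected by normexp (offset 50) after subtraction of the local background and normalized within arrays by loess (span 0.2) in limma 3.58.1 (R 4.3.3). Control spots and outlier spots were left out and repeated spots averaged. Probes were tested if the liver channel was above background on at least 4 of 5 arrays of a group, with the limit of the study's methods (negative control spots, trimmed mean with a trim of 5%, plus 3 trimmed SDs). The channels of control 832 and hypothyroid 576 were exchanged. No spots saturated in the liver channel affected the 15 probes, and saturation in the reference channel was not counted.

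Log2 ratios were tested with limma over all probes, with p-values adjusted by Benjamini-Hochberg at 0.05, and single genes by exact permutation over 252 assignments. The number of arrays, 1 for each pup, limits the precision. Symbols came from accessions in a RefSeq gene list (GRCm38.p6), which named 23374 of 41174 probes. A gene was represented by its brightest tested probe. The 10 genes, the pathway and marker lists and the rules below were chosen with earlier results of these data known. Named were the 10 genes, from each pathway list up to 3 genes a direction with the smallest unadjusted p below 0.05, the fixed genes Acacb, Thrsp, Me1, Dgat1, Scd2, Fads1, Elovl5, Insig1, Insig2 and Nr1h3, and the 5 genes most alike in pattern. Pgd, Gpat2 and Mlxip were not matched to a probe. Marker lists for hepatocytes, adipocytes and exocrine pancreas are given with the results. Of the other marker lists, those with an unadjusted p below 0.05 numbered 1 of 6 erythroid, 2 of 8 skeletal muscle, 0 of 8 Kupffer cell, 0 of 5 biliary, 1 of 7 stellate cell and fibroblast and 0 of 6 endothelial genes tested.

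Alternatives were the dyes as labelled, no slide 141, other background corrections (none, processed signals), median centring, a span of 0.3, quantile normalization, the filter omitted or requiring all 10 arrays, array weights, a fixed or random effect of slide (statmod 1.5.0), the Fs statistic with 100 residual shuffles named in the methods, probes averaged to genes, and each array left out. The programs were tested on simulated data. TLDA (miRNA) samples were not used here, and 1 gene of the list for carbon and NADPH supply is not reported here.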

Additional observations from a re-analysis of the deposited data

Results flagged for a closer look

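Among 54 groups of 5 arrays (27 genes, control and hypothyroid), 7 (13.0%) held an array far from the rest. For independent groups chance alone would put this rate near 5%. The groups are the same arrays read for 27 genes and are not independent, so an excess over chance was not tested. Control 616 was that array in 5 of the 7. The distance to its neighbour, as a share of the whole range of the group, was 0.827 for Mlxipl, where control 616 was at 2.57 and the next control at 4.08. It was 0.807 for Fads2 (1.24 against 2.63), 0.846 for Elovl5 (1.62 against 2.57) and 0.819 for Nr1h3 (2.19 against 3.18). For Scd2 it was 0.901, with control 616 the highest array at -1.21 and the next at -4.23. These differences between the groups are given with and without control 616 in the report, except for Elovl5, which was at 0.04 with it and -0.17 without it.

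Control 522 was the highest control for Elovl3 (share 0.770), at 0.72 against 0.17. Hypothyroid 311 was the highest hypothyroid array for Cidec (share 0.724), at 2.22 against 1.33, and it was also the array with adipocyte markers. Whether those transcripts account for the Cidec value was not tested.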

How the results depend on the processing

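All 10 genes were tested under 26 alternatives, except Gpam with the filter on all 10 arrays, which left 9. Under each alternative 0 of the genes tested had an adjusted p below 0.05. At an unadjusted p below 0.05 there were 3 of 10, and this count became 0 with the dyes of slide 141 as labelled, 0 with median centring, 1 without slide 141, 1 with slide as a fixed block, 2 with processed signals, 2 with array weights, 2 without slide 141 and control 616, and 2 to 3 with single arrays left out. Acly was the gene that remained without slide 141 and with the fixed block. Acly and Scd1 remained with processed signals, with array weights, and without slide 141 and control 616. With quantile normalization the 3 were Acly, Scd1 and Dgat2. With each of 10 arrays left out in turn Acly kept its unadjusted p below 0.05 in 10, Scd1 in 6 and Fasn in 5, while Srebf1 fell below 0.05 in 2 and Fads2 without control 616. Over all probes 3 had an adjusted p below 0.05, and this count was 0 with the dyes as labelled (107 at an unadjusted p below 0.05), 0 without slide 141 (2320), 0 with the fixed block (2234), 1 with processed signals and 1 with median centring. It was 5 with the filter on all 10 arrays, 8 with no background correction, 12 with the Fs statistic, 14 with slide as a random block and 50 with array weights. It was between 1 and 34 with single arrays left out, with 34 without control 616, 6 without hypothyroid 723 and 1 without control 832, control 391, hypothyroid 576 or hypothyroid 626. In runs added after seeing the data it was 11 without subtraction of the local background and 1 without slide 141 and control 616. Median centring moved the median of all probes from -0.01 to 0.09 and that of the 10 genes from 0.09 to 0.23, so its differences of single genes are to be read relative to that shift.

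None of the differences that turned direction had an adjusted p below 0.05, and the cause was not tested. That of Fads2 without control 616 had an unadjusted p of 0.0226 by limma. With the dyes as labelled Gpam was at 0.059, Dgat2 at 0.061, Acacb at 0.0087 and Insig2 at -0.019. Without slide 141 Gpam was at 0.030 and Dgat2 at 0.0093. Gpam was at 0.013 with no background correction and 0.010 without local subtraction, where Fads1 was at -0.0024. With processed signals Elovl6 was at 0.038, Gpam at 0.022 and Fads1 at -0.008. With median centring Elovl6 was at 0.13, Gpam at 0.019 and Dgat2 at 0.081. With quantile normalization Elovl6 was at 0.098, Fads2 at -0.0064 and Elovl5 at -0.056. With array weights Mlxipl was at -0.017, Gpam at 0.0042, Fads2 at -0.16, Scd2 at 0.033, Elovl5 at -0.11 and Fads1 at -0.20. With probes averaged to genes Acaca was at -0.030 and Dgat2 at 0.041. Without slide 141 and control 616 Mlxipl was at -0.066, Gpam at 0.027, Fads2 at -0.16, Scd2 at 0.12, Elovl5 at -0.13, Fads1 at -0.15 and Insig2 at -0.0027. With single arrays left out the ranges were -0.20 to 0.075 for Elovl6, -0.069 to 0.39 for Mlxipl, -0.043 to 0.021 for Gpam, -0.17 to 0.024 for Dgat2, -0.24 to 0.20 for Fads2, -0.67 to 0.17 for Scd2, -0.098 to 0.045 for Acacb, -0.17 to 0.11 for Elovl5, -0.24 to 0.16 for Fads1 and -0.003 to 0.25 for Insig2.

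By animal number, no paired analysis was possible because the labels number the animals of the 2 groups differently. The 4 slides that held both groups do pair arrays, in the fit with slide as a fixed block. There Acly was at 0.37 (limma unadjusted p = 0.00261), Scd1 at 0.62 (limma unadjusted p = 0.0700) and Fasn at -0.34 (limma unadjusted p = 0.0597). With 5 arrays against 5 the 95% intervals of Scd1, Srebf1, Mlxipl, Fads2 and Fasn still hold differences of more than 1.5-fold. Gpam and the third Acaca probe were near the background limit.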
